A study of Drosophila melanogaster with 2 samples.

Results

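The genes described here are the 52 translation initiation and elongation factor genes of Drosophila melanogaster whose annotated symbol begins with eIF or eEF, out of 18164 annotated genes. Members were taken by symbol alone, with no measured value, but the group was proposed with earlier results of these data known. All 52 are protein-coding; 44 carry an eIF symbol and 8 an eEF symbol. The study mapped where the protein CG10654 sits on chromatin, by chromatin immunoprecipitation followed by sequencing (ChIP-seq). Flies of a transgenic line stably expressed CG10654 with green fluorescent protein (GFP) fused to its C-terminal end, and an anti-GFP antibody pulled down the chromatin. The material was whole embryos of both sexes, collected over 0 to 24 h, and a peak value is therefore an average over the tissues and stages of the embryo. There is 1 group of 2 biological replicates and no second genotype, treatment or age, so no comparison between conditions could be made; the control library was not analysed here. The labels do not say which promoter drives the fusion or whether the untagged gene was still present.

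Translation begins when the small ribosomal subunit, carrying the initiator tRNA on eIF2 and held by eIF1, eIF1A, eIF3 and eIF5, is brought to the capped end of an mRNA by the eIF4 factors and scans to the start codon. eIF5B then helps the large subunit to join, and eIF2B recharges eIF2 with GTP for the next round. During elongation eEF1alpha delivers aminoacyl-tRNAs, the eEF1beta, eEF1delta and eEF1gamma proteins belong to the complex that recharges it, and eEF2 moves the ribosome along the mRNA. These genes are used in most cells, and in the fly embryo several of their products also act on maternal mRNAs.

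The peaks are the authors' own calls on the dm6 genome, and the signal value of a peak is the authors' enrichment measure, which orders peaks within a list and has no absolute unit. The words found in the DNA under the summits recur in the description below, so the reference sequence at 5 of them is shown first. Each line gives the bases within 50 bp of the summit, 5′ to 3′ on the gene's strand, from the RefSeq Release 6 (dm6) genome, with annotated untranslated bases trimmed from the ends. Capitals mark TATCGATA, the binding word of the promoter factor DREF, and separate copies of TATCG, which is its first 5 bases and reads CGATA on the other strand. The first 3 windows hold the word and the last 2 do not.
eEF1gamma, chr3R:29220091-29220171, plus strand: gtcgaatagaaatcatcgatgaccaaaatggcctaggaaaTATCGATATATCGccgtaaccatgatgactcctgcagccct
eIF1, chr3L:3222961-3223057, plus strand: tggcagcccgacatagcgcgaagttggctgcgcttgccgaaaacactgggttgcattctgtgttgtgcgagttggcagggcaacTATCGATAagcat
eIF3a, chr3R:4433899-4433964, minus strand: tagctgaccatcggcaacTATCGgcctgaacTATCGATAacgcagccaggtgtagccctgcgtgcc
eIF4EHP, chr3R:24109155-24109255, minus strand: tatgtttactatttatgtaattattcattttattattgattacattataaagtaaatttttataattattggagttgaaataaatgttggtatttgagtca
eIF3d1, chr3R:23679909-23680009, plus strand: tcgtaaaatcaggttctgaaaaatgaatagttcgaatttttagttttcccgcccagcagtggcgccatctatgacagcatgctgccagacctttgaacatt

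A gene was given a promoter summit where a summit fell no more than 500 bp from any of its annotated starts. The stringent list, kept by the authors with the irreproducible discovery rate (IDR, a comparison of the ranking of candidates between replicates), placed a promoter summit at 15 of the 52 genes, 28.8% with a 95% Wilson interval of 18.3 to 42.3%. Among all annotated genes 16.3% had such a summit, and among protein-coding genes, the closer reference, 19.8%, which lies inside that interval. The count is therefore not separated from that of protein-coding genes at this number of members. The authors' wider list of candidates from the pooled reads held a promoter summit for 33 of the 52 genes, against 45.3% of all genes. Candidates of replicate 1 alone reached 32 genes (background 40.9%) and those of replicate 2 alone 38 genes (background 48.4%). Both replicates had a promoter summit at 31 of the 52 genes, against 34.8% of all genes. This counts genes, and the 2 summits need not be the same site: at eIF4A that of replicate 2 lay 834 bp from the pooled one. No list had a summit at 13 of the 52, against 43.9% of all genes. These backgrounds include genes that do not code for protein, and the intervals cover counting error only.

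Neighbouring genes bear on these counts, since the fly genome is compact and a summit between divergent genes counts for each. Of the 30 members with no start of another gene within 500 bp, an IDR summit was present at 7, against 9.34% of all such genes. Of the 22 members with a close neighbour, 8 had one, against 28.2%. The Wilson interval was 11.8 to 40.9% for the first class and 19.7 to 57.0% for the second. The second holds its background of 28.2%, so that class is not separated from it. The first lies above its background of 9.34%, but both backgrounds include genes that do not code for protein. The share of protein-coding genes in each class was not computed, so no excess is read from the first.

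The lists held 4117 IDR peaks, 27219 pooled candidates, 23253 candidates for replicate 1 and 30000 for replicate 2, which looks like a set maximum. The lowest IDR signal was 99.3 and the highest 2484. Read depth is not recorded in these lists, and the lists differ in their lowest signal, from 10.1 in replicate 2 to 26.7 in the pooled reads, so a signal value is read against other peaks of the same list, and a ratio between replicates only beside the same ratio over all matched promoter peaks.

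**Figure D1:**
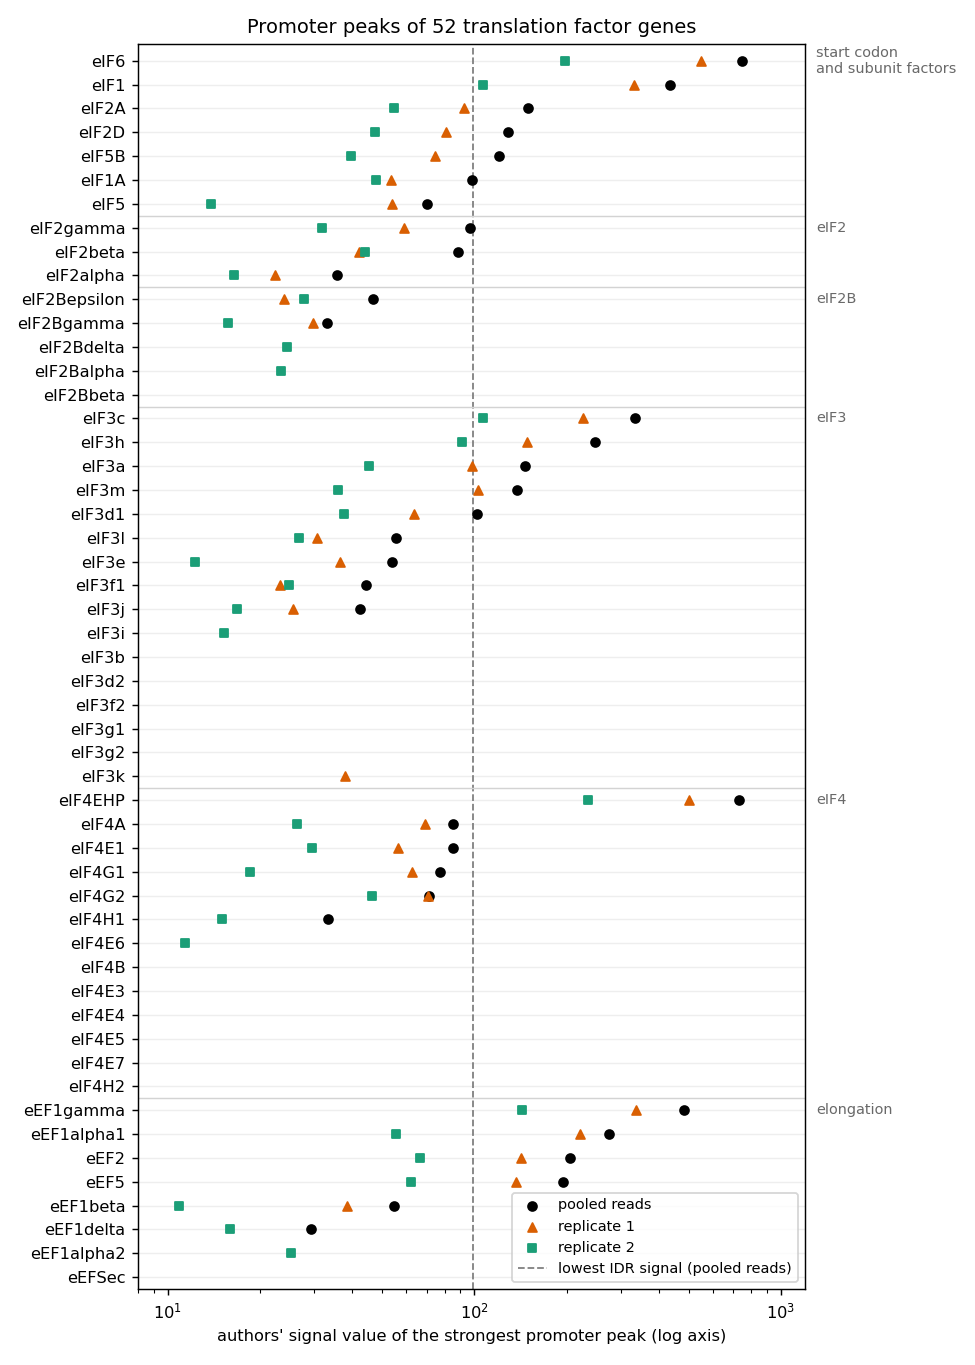
Authors' signal value (log axis, no unit) of the strongest promoter peak of each of the 52 genes, grouped by role, in the pooled reads (circles), replicate 1 (triangles) and replicate 2 (squares); a row without a symbol has no promoter summit in that list, and the dashed line is the lowest IDR signal of 99.3. eIF6 and eIF4EHP lie farthest to the right in the pooled list, and 13 rows are empty.

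Of the 7 factors of start codon choice and subunit joining, 5 had an IDR summit and all 7 a pooled candidate. Over all genes these shares were 16.3% and 45.3%, and 19.8% of protein-coding genes had an IDR summit. The Wilson interval of the IDR share of these 7 factors, 35.9 to 91.8%, is wide, and differences between roles were not tested. eIF6, which keeps free large subunits from joining small ones and acts in their maturation, had the highest signal of all members, 744, rank 79 of the 4117 IDR peaks. Its signal was 548 in replicate 1 and 198 in replicate 2. This summit, on arm 2R at chr2R:23850246-23850552, lay at -97 bp (minus is upstream of the start), in an exon of the antisense RNA asRNA:CR45928 and an intron of ytr, and the start of the antisense RNA was nearer, at 68 bp. eIF1, which guards the fidelity of start codon choice, had a signal of 434, with 332 in replicate 1 and 107 in replicate 2. Its summit lay at -334 bp, but at -47 bp from the divergent ribosomal protein gene RpL28, and also at -466 bp from snoRNA:Or-CD11a. A second IDR peak of eIF1, at chr3L:3223015-3223404, had a signal of 195 at -131 bp. The strongest eIF1 peak is thus nearer to RpL28 than to eIF1, whereas the second lies closer to the eIF1 start.

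The other 3 genes of this group with an IDR summit had lower signals. eIF2A, described in mammals and yeast as an alternative carrier of the initiator tRNA, had a signal of 149, with 92.6 in replicate 1 and 54.8 in replicate 2, at -64 bp from its nearest start and inside the 5′ UTR of a transcript with an earlier start. eIF2D, a factor that binds tRNA and takes part in ribosome recycling, had 129, with 80.7 and 47.5 in replicates 1 and 2, at -152 bp. eIF5B, the GTPase of subunit joining, had 120.0, with 74.2 and 39.6, at -40 bp from a start that lies downstream of another, so that the summit falls in an intron. All 3 lay in the lower range of the members, and none was within 500 bp of another gene's start. eIF1A, which stabilises the scanning complex, fell just outside the IDR list with a pooled signal of 98.6 at -74 bp, 53.6 in replicate 1 and 47.9 in replicate 2, and -145 bp from the start of Vps39. eIF5, which triggers GTP hydrolysis by eIF2, had 70.1 at -94 bp, equally far from the start of CG46312. It had 53.8 in replicate 1, and its replicate 2 summit, of 13.8, lay 281 bp from the pooled one.

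The 3 subunits of eIF2 and the 5 of its exchange factor eIF2B had no IDR promoter summit, counts of 0 that allow shares of up to 56.1% and 43.4% by the Wilson interval. All 3 eIF2 genes had a pooled candidate. That of eIF2gamma, the GTP-binding subunit, had a signal of 96.6, with 59.0 in replicate 1 and 31.8 in replicate 2, at -64 bp. This summit is equally far from the start of Su(var)3-9 and nearer to that of Set, at -30 bp. The candidate of eIF2beta had 88.2, at -310 bp, with 42.0 in replicate 1 and 44.1 in replicate 2. eIF2alpha, the subunit whose phosphorylation slows initiation, had 35.7. eIF2gamma and eIF2beta are among the 5 members of highest pooled signal below the IDR list, together with eIF1A, eIF4A and eIF4E1. Of the eIF2B genes, eIF2Bepsilon, the catalytic subunit, had a pooled signal of 46.9, at a summit 1 bp from the start of Ocrl, and eIF2Bgamma 33.1. eIF2Bdelta and eIF2Balpha had a candidate in replicate 2 alone, and eIF2Bbeta had none in any list.

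Of the 16 eIF3 genes, which encode the large scaffold on the small subunit, 5 had an IDR summit, 9 a pooled candidate and 5 no summit in any list. The shares over all genes were 16.3%, 45.3% and 43.9%. The Wilson interval of the IDR share, 14.2 to 55.6%, holds 16.3% and the 19.8% of protein-coding genes. The scaffold subunit eIF3c had the highest signal of the eIF3 genes, 333, with 226 in replicate 1 and 107 in replicate 2, at -66 bp. eIF3h, an accessory subunit, had 248, with 149 and 91.5 in replicates 1 and 2. Its strongest summit, at chr2L:5052383-5052550, lay downstream of the nearest start, at 277 bp, in an intron, and at -340 bp from the divergent gene senju. A second IDR peak of eIF3h had a signal of 185 and lay at 49 bp. The other core subunit gene, eIF3a, had 146, with 98.3 and 45.3, at -54 bp, and the start of CG1074 was nearer, at -16 bp. eIF3m had 138, with 103 and 36.0, at -88 bp, and lay at -138 bp from CG8323. eIF3d1, whose human counterpart contacts the mRNA cap, had 102, with 63.8 and 37.5, at -80 bp, close to the lowest IDR signal. Within eIF3, the order of signals is thus eIF3c, eIF3h, eIF3a, eIF3m and eIF3d1, with the last 3 differing by less than the gap between eIF3h and eIF3a. The 4 eIF3 genes with a pooled candidate below the IDR list had pooled signals from 42.3 for eIF3j to 55.5 for eIF3l, the latter at a summit nearer to Nrx-IV, and eIF3i and eIF3k each had a candidate in a single replicate.

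Among the 13 eIF4 genes only eIF4EHP had an IDR promoter summit, and 6 had no summit in any list, against 43.9% of all genes. The Wilson interval of the IDR share, 1.37 to 33.3%, holds the 16.3% of all genes and the 19.8% of protein-coding genes. eIF4EHP encodes a cap-binding protein that represses maternal mRNAs in the fly embryo, caudal with Bicoid being the textbook case. Its signal was 731, rank 85 of the IDR list, with 501 in replicate 1 and 234 in replicate 2. The summit, at chr3R:24108983-24109383, lay at -245 bp, and at -131 bp from the divergent gene CG18428, which is nearer. The main cap-binding factor eIF4E1 had a pooled candidate of 84.9 at -55 bp, with 56.6 in replicate 1 and 29.5 in replicate 2. The helicase gene eIF4A had 85.2 at -156 bp, with 69.0 and 26.3; its strongest summit in replicate 2 lay 834 bp from the pooled one, at another start. The scaffold genes eIF4G1 and eIF4G2 had 77.0 and 71.1. eIF4G2 had 70.9 in replicate 1 and 46.6 in replicate 2, and its replicate 2 summit lay 192 bp from the pooled one, which lay equally far from the start of CG33111. Of the 7 genes of the eIF4E family, 4 had no summit in any list, namely eIF4E3, eIF4E4, eIF4E5 and eIF4E7, and eIF4E6 had one candidate in replicate 2, of 11.4. The pooled signal of the repressor eIF4EHP was thus far above that of eIF4E1 within the same list.

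Of the 8 elongation factor genes 4 had an IDR promoter summit and 6 a pooled candidate. Over all genes these shares were 16.3% and 45.3%, and 19.8% of protein-coding genes had an IDR promoter summit. The Wilson interval of the IDR share of the 8 genes, 21.5 to 78.5%, is wide. eEF1gamma, the structural subunit of the exchange complex, had the highest signal, 485, with 336 in replicate 1 and 143 in replicate 2; its summit, at chr3R:29220006-29220248, lay at -31 bp between genes and within 500 bp of no other gene's start. eEF1alpha1, the tRNA carrier, had 276, with 221 and 55.5, at -85 bp from a downstream start, so that the summit lies in an intron of its longer transcripts. eEF2, the translocase, had 205, with 142 and 66.7, and its summit, at chr2L:21681949-21682338, lay downstream, at 20 bp, in its 5′ UTR. eEF5, the fly counterpart of eIF5A, which helps ribosomes over proline runs, had 195, with 137 and 62.0, at -5 bp. None of these 4 summits was shared with another gene. The other exchange subunits were lower: eEF1beta had a pooled signal of 54.7 and eEF1delta 29.2. eEFSec, the selenocysteine factor, had no summit in any list.

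**Figure D2:**
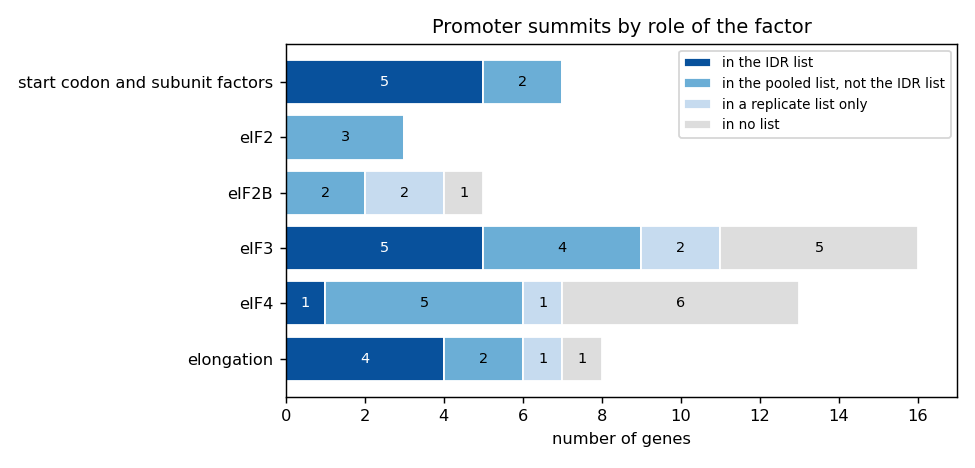
Number of genes (horizontal axis) in each role of the factor, split by the most stringent list that holds a promoter summit. The start codon and subunit factors have 5 of 7 genes in the IDR list, eIF2 and eIF2B none, and 6 of the 13 eIF4 genes are in no list. Over all genes 16.3% have an IDR promoter summit and 43.9% are in no list.

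Paralogs of the same factor differed in these lists. eEF1alpha1 had an IDR summit, whereas eEF1alpha2 had one candidate, in replicate 2, of 25.3. eIF3d1 was in the IDR list and eIF3d2 in none. eIF3f1 had a pooled candidate of 44.5 and eIF3f2 none, and eIF4H1 had 33.3 and eIF4H2 none. eIF3g1 and eIF3g2 both lacked a summit, and eIF4G1 and eIF4G2 both had a pooled candidate below the IDR list. The remaining genes with no summit in any list were eIF4B and eIF3b. An absent entry says that no candidate passed the authors' limit for the list, not that the protein was absent. By arm, IDR summits were found at 2 of 5 members on 2L, 5 of 13 on 2R, 3 of 11 on 3L, 5 of 15 on 3R, 0 of 7 on X (Wilson limit 35.4%) and 0 of 1 on chromosome 4. The share of all genes on each arm was not computed, so no difference between arms is read from these counts.

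The 15 strongest IDR promoter summits of these genes had a median signal of 204.6 (95% order-statistic interval 138 to 434), against 173 over all 2164 IDR promoter peaks, and 9 of the 15 lay above that value. That interval holds 173, so the members' signals are not set apart from those of other promoters. The 2164 include every promoter peak, while the members' median left out the weaker second peaks of eIF1 (195) and eIF3h (185). Summits lay upstream of the start in 13 of 15 genes and downstream in eIF3h and eEF2, and 85.6% of all IDR promoter summits lay upstream of the nearest start. The median distance was -66 bp, with an interval of -97 to -31 bp, and 11 of the 15 lay within 100 bp of the start. Over all IDR promoter summits it was -108.5 bp, but measured to the nearest start of any gene. Of the 15 summits 6 were shared with another gene, and 4 of these (eIF6, eIF4EHP, eIF1 and eIF3a) were nearer to the other gene. Over all IDR promoter summits 44.7% were shared. The 2 members of highest signal are both among those nearer to another gene.

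**Figure D3:**
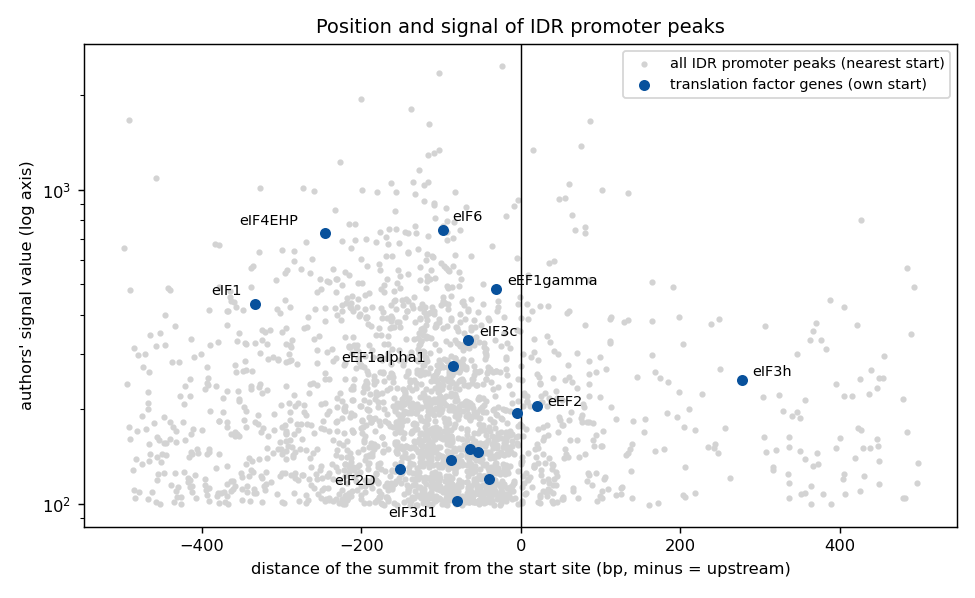
Signal value (log axis, no unit) of IDR promoter peaks against the distance of the summit from the start (bp, minus is upstream), for all 2164 peaks (grey, nearest start) and the 15 translation factor genes (blue, their own start). Of the blue points 11 lie within 100 bp of the start, while eIF4EHP and eIF1 lie farther upstream and eIF3h downstream.

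Every one of the 15 peaks was matched in both replicates, with replicate summits within 100 bp of the IDR summit. The same held for 2069 of all 2164 IDR promoter peaks. The IDR compares the ranking of candidates between replicates, so the match at these 15 peaks is not read as a separate check. Ranked by signal among the 3960 IDR peaks matched in both replicates, eIF4EHP was 76th in replicate 1 and 89th in replicate 2, and eIF6 63rd and 141st. eEF1alpha1 differed most, at rank 581 in replicate 1 and 2121 in replicate 2, and eIF3m was at 2166 and 3430. The ratio of the replicate 1 to the replicate 2 signal ran from 1.62 for eIF3h to 3.99 for eEF1alpha1, with a median of 2.14. Over all matched IDR promoter peaks the median ratio was 2.02, with quartiles of 1.68 and 2.43. Rank was better in replicate 1 for 10 of the 15 genes, as for 56.5% of all 2069 matched IDR promoter peaks. With 2 replicates the spread for a gene is given by its 2 values alone.

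**Figure D4:**
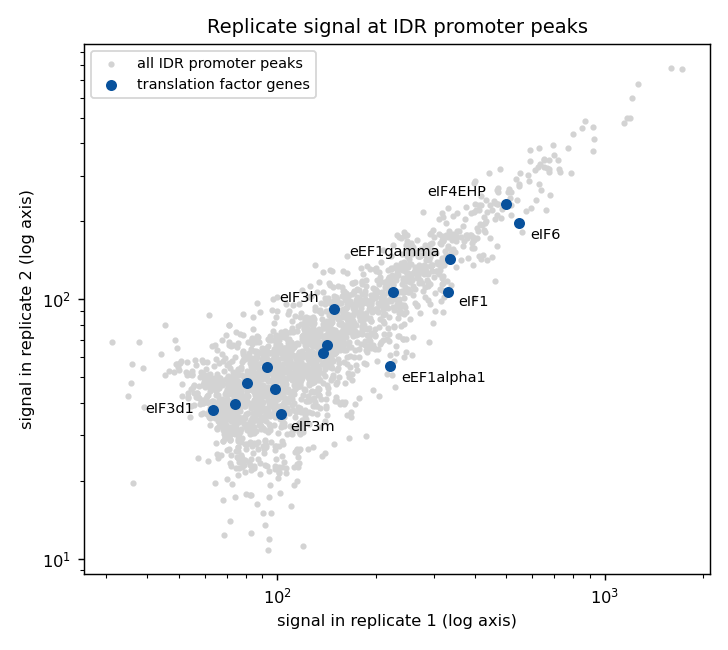
Signal in replicate 1 against replicate 2 (log axes, no unit, each on its list's own scale) at the 2069 IDR promoter peaks matched in both (grey) and at the 15 translation factor genes (blue). Of the 15 blue points eEF1alpha1, at 221 and 55.5, has the highest ratio of replicate 1 to replicate 2 signal, 3.99, and some grey points lie lower still.

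Short DNA words were searched on both strands, in the window of 50 bp on either side of a summit. A match describes letters, not a bound site. TATCGATA, as shown above for eEF1gamma, eIF1 and eIF3a, was also present at eIF2A, giving 4 of the 15 windows, against 1.82% of all 4117 IDR windows and 3.37% of IDR promoter windows. CGATA, which lies within TATCGATA and overlaps it, was in 6 of 15, with eEF2 and eIF5B added, against 16.7% and 22.0%. GGTCACAC, a core of the motif bound by M1BP, was in the windows of eEF1alpha1 and eIF2A, against 1.04% and 1.80%. The other words were GAGAG (1 of 15, eIF3c, against 8.60% of all IDR windows), TATAAA (2 of 15, eIF4EHP and eIF6, against 21.9%), CTTTT (4 of 15, against 41.3%) and CACGTG (0 of 15, against 0.680%). The G and C content of the members' windows had a median of 45.5%, from 16.8% at eIF4EHP to 55.4% at eIF3a, against a median of 32.7% over IDR promoter windows. The window of eIF4EHP, printed above, thus stands at the lower end in G and C and that of eIF3a at the upper end. Base composition differs between these windows and the general ones, and its part in the word counts was not tested.

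The same word was present at members with and without an IDR summit. In the promoter, taken as the 250 bases before to 50 after the start of the canonical transcript, it was present in 14 of the 52 genes, against 7.20% of all genes and 8.94% of protein-coding genes. It was in 4 of the 15 with an IDR summit and in 10 of the 37 without, among them eIF1A, eIF2gamma and eIF4A just below the list and eIF2Bbeta and eIF4B with no summit. CGATA was in 33 of the 52 promoters, against 44.0%. GGTCACAC was in 6 of 52, against 6.0%, and in none of the 15 with an IDR summit in this window. GAGAG was in 7 of 52, against 29.8%, CACGTG in 4, against 4.26%, TATAAA in 24, against 43.6%, and CTTTT in 37, against 76.2%. TATAAA was in 10 of the 15 promoters with an IDR summit and 14 of the 37 without. The same counts were 9 and 28 for CTTTT, 9 and 24 for CGATA, 1 and 6 for GAGAG, and 2 and 2 for CACGTG. Differences between the 2 classes were not tested.

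Many fly genes of the translation machinery start within a run of pyrimidines, the TCT initiator, in place of the usual initiator. CTTTT on the gene's own strand, with its C within 10 bp of an annotated start, was found at 7 of the 52 genes, against 5.57% of all genes; the width of 10 bp was chosen after a width of 5 bp, which gave 3 of 52 against 2.83%, had been seen. Of the 15 genes with an IDR summit eIF3c had it, and of the 37 without, 6 did. In all 7 genes the C lay downstream of the annotated start, from 4 bp at eIF3f1 and eIF4A to 10 bp at eIF1A. None had it at the start itself, so the matches are not read as TCT initiators. The starts of 4 of these are shown to compare the position of the word, in capitals, as 14 bases before and 16 from the annotated start on the gene's strand.
eIF4A, chr2L:5981750-5981779, plus strand: ttttgcaagatggagcctCTTTTgcttggt
eIF3f1, chr3R:4714167-4714196, minus strand: ccgcactatcgataggccCTTTTcttgcat
eIF3i, chr2L:4967760-4967789, minus strand: aggccacggtcacactgctCTTTTggcgtg
eIF3e, chr3L:16786926-16786955, minus strand: gtaactctgagcgggcgtcactCTTTTcgt

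Genes outside the name rule that act on translation were taken from a list of 30 names, of which 29 matched an annotated symbol. IDR promoter summits were present at 13 of them, where the background is 16.3% of all genes and 19.8% of protein-coding genes. Pooled candidates were present at 25, against 45.3% of all genes. larp, the La-related protein that in human cells binds mRNAs of the translation machinery, had the highest signal, 1013, at -327 bp and rank 30, above every eIF and eEF gene. The termination factor genes eRF1 and eRF3 had 236 and 252, at summits shared with Rbbp5 and SC35. The diphthamide enzymes Dph1 and Dph2, which modify eEF2, had 256 and 122. The small-subunit scaffold gene Rack1 had 221, at a summit shared with mts. Of genes acting on eIF4E, the kinase Lk6 had 152, the binding protein mxt 144 and the repressor Thor 135. Fmr1, an mRNA-binding repressor, had 134, the recycling factor pix 127, the stress response factor crc 109 and the mitochondrial initiation factor mIF2 101. mxt, pix and crc shared their summits with CG11927, Srp68 and Mondo. The list was written with earlier results of these data known, so its count is a description.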

How the data were processed

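The deposited files are peak lists of 2 biological replicates, not reads. Per the file headers and descriptions, candidates were called by the authors for each replicate and for the reads of both together, against a control library, and kept the IDR list from the pooled candidates. The sources used here do not give the aligner, peak caller, IDR limit or versions, and read depth is unknown. Field 7 of the deposited lists is a signal value, an enrichment computed by the authors, which ranks peaks within a list. The summit is the start plus field 10. Lists on dm3 were not used here.

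Summits were assigned to all 23998 starts of 18164 genes on the main arms (Ensembl release 115, FlyBase 6.54, dm6; positions 1-based) within 500 bp, and the strongest peak per gene was kept. Replicate summits were matched within 100 bp. A summit near several genes counted for each. Shares carry 95% Wilson intervals and medians order-statistic intervals; both cover counting error only. No test was run, since there is 1 group. Reference sequence was RefSeq Release 6; no promoter or protein table was used. The assignment was checked on simulated summits with known answers. Python 3.11.15, pandas 2.3.3, numpy 2.4.6 and scipy 1.17.1 were used.

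Members were taken by symbol, with no measured value, but this gene group and the other lists were proposed with earlier results of these data known. The genes named are all members with an IDR promoter summit, the 5 of highest pooled signal below it, all members with no summit, paralogs of the same stem and listed pathway genes with an IDR summit; other members are named to complete a group. Alternatives were the window width, nearest start only, peak overlap, stronger peaks, match width, word window and each replicate left out.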

Additional observations from a re-analysis of the deposited data

How the results depend on the processing

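Of 44 alternatives 38 stayed within 1.5 times the count, or within the interval of the median, and 6 moved. Not all of them could move a value: all 15 peaks were already matched at 100 bp, so a match within 250 bp could not change that count. The number of members with an IDR promoter summit was 15 with a 250 bp window (12.7% of all genes), 16 with 1000 bp (19.6%), 12 with nearest starts alone (11.5%) and 16 by any overlapping base (17.7%). It was 9 among IDR peaks above the median IDR signal (9.35%). The same limit left 5 of the 13 pathway genes. With 1000 bp, 10 summits were shared in place of 6. Keeping the 4117 strongest candidates of each replicate left 14 members in both lists in place of 31, with 13.3% of all genes. With 100 bp on either side of the summit CACGTG was in 1 window (1.85% of all IDR windows) and TATAAA in 5 (37.1%). Using the strongest 4117 candidates of a single replicate, members with a promoter summit numbered 17 without replicate 1 and 16 without replicate 2. The shares of all genes were 15.6% and 16.5%. Pathway genes numbered 11 and 14, the median distance was -52 and -77 bp, and shared summits were 7 in each. For the median distance and the shared summits, leaving out a replicate was an alternative chosen after seeing the data. In replicate 1 eIF3d1 dropped out, and eIF4A and eIF4G2 entered. In replicate 2 eIF3m dropped out, and eIF1A, eIF2beta and eIF4G2 entered. The strongest eIF4G2 summits of replicates 1 and 2, at chr3R:23819350 and chr3R:23819148, lay farther apart than the 100 bp used for matching. Peak lists without read counts limit what an absent summit can say.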

Other observations

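Some IDR peaks lie near or inside these genes but outside the promoter window. The strongest IDR peak of all, with a signal of 2484 at chrX:2703687-2704097, lies at -696 bp from the start of eIF2Bbeta, which has no promoter summit in any list, and 23 bp from the start of Ugalt, a UDP-galactose transporter gene. The eIF5B gene holds 2 further IDR peaks in its introns, with signals of 184 and 152, at 27744 and 21919 bp downstream of its nearest start. The start of sty was nearer to both, at 7924 and 13749 bp. The peak of 184 exceeds the 120.0 of the eIF5B promoter. The eIF4EHP gene also holds 2, with signals of 139 and 109, at 9791 and 2515 bp. The start of Syx1A, a syntaxin gene of membrane fusion, was nearer to both, at 6594 and 682 bp.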
